A study of Mus musculus with 4 samples.

Results

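The 7 genes described here build the accessory structures of the sperm tail, and they were chosen by name from the 18419 genes of the expression table. Odf1, Odf2, Odf3 and Odf4 are outer dense fibre genes, and Akap3, Akap4 and Fsip2 are fibrous sheath genes. All 7 were found in the table under these symbols. They were followed in testis cells of male ICR mice, an outbred stock, with a droplet method from 10x Genomics that tags the 3' end of each captured transcript by a unique molecular identifier (UMI). A0 mice received water by gavage and are the control, and A10 mice received alginate oligosaccharides (AOS, short chains from brown seaweed) at 10 mg/kg body weight. B0 mice received busulfan alone, and BA10 mice received busulfan and then AOS at 10 mg/kg. Busulfan is an alkylating agent that kills dividing germ cells. Per the study it was given once to young males, and daily gavage followed for some weeks. The methods and the results of the study differ on how many. Each group was 1 library of cells pooled from several mice, so animals could not be told apart, no test between groups was possible, and every interval below covers counting error only.

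The outer dense fibres run along the axoneme from the midpiece into the principal piece and stiffen the tail. The fibrous sheath surrounds the principal piece, and it anchors protein kinase A and glycolytic enzymes close to the motor. Both are made while haploid spermatids elongate, and much of the RNA is transcribed before the chromatin is compacted. Odf1 is a small cysteine-rich protein of the fibres, Odf2 is a coiled-coil protein of the fibres that is also found at centrioles, and Odf3 and Odf4 are further proteins of the sperm tail. Akap4 is the most abundant protein of the sheath, Akap3 is the anchoring protein it is assembled with, and Fsip2 is a very large protein that interacts with the sheath.

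The members lie on 6 chromosomes. On the mm10 build, with GENCODE M21 annotation, Odf1 is at chr15:38219203-38226735, Odf2 at chr2:29889221-29931746, Odf3 at chr7:140847805-140851018, Akap3 at chr6:126853098-126874308, Akap4 at chrX:7067519-7078609 and Fsip2 at chr2:82943634-83008937, all on the plus strand, while Odf4 is at chr11:68921835-68927081 on the minus strand. The number of other genes overlapping a member on the same strand was 0. RefSeq promoter windows (GRCm38.p6; 250 bases before and 50 after a start) were held for 6 members, in 10 windows. Among all pairs of these members the longest run of identical bases in the upstream parts was 20 bases, between Akap3 and Akap4, and for the other pairs it was 7 to 11 bases. Of 32851 windows of all genes, 2 held the run, those of Akap3 and Akap4. It starts 34 bases before the Akap3 start and 47 bases before the Akap4 start, and it is in capitals in the upstream parts of Akap3 (chr6:126852848-126853097) and Akap4 (chrX:7067265-7067514), both on the plus strand, which are shown because this is the sequence that both anchoring protein genes have in common.
Akap3: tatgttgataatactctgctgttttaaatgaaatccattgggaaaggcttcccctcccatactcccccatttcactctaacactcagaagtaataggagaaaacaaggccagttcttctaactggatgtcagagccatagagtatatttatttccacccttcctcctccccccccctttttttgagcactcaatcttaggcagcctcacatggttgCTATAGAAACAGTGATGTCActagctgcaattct
Akap4: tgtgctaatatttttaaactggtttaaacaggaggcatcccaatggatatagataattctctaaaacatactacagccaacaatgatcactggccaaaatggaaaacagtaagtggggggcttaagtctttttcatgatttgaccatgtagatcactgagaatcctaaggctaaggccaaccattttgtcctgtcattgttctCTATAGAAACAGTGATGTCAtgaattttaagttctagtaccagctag
The letters TGACG, the core of the cAMP response element, were searched on both strands and found in the windows of 2 members, Odf2 and Fsip2. They were present in 20.8% of all windows. Neither the full palindrome of that element (1.79% of all windows) nor TATAAA (13.6%) was in any member's window. The upstream parts of Odf2 (chr2:29889470-29889719) and Fsip2 (chr2:82943384-82943633), both on the plus strand, are shown with these letters in capitals, since these 2 members had the lowest correlation of levels over the A0 clusters. Fsip2 holds them on the opposite strand, as CGTCA.
Odf2: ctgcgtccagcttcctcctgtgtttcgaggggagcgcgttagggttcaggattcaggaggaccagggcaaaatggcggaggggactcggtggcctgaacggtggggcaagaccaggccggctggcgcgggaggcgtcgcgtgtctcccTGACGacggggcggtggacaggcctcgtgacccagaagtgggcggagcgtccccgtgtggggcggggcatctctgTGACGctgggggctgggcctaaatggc
Fsip2: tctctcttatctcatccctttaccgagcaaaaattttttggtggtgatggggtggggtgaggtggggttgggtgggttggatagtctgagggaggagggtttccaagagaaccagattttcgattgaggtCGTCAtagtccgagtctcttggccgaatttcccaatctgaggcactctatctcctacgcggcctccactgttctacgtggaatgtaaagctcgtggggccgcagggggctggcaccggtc

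In the order A0, A10, B0 and BA10, the libraries held 8941, 9682, 4659 and 3778 cells, with a median of 12685, 10948, 4214 and 17989 UMIs per cell. The lowest UMI count of a cell was 7687, 6716, 2985 and 9013, so comparisons were also made over cells with at least 9013 UMIs, a limit that 7901, 6691, 448 and 3778 cells reached. Between 2.49% and 3.47% of a library's cell barcodes also occurred in another library. Levels are UMIs per 1000000 UMIs (CPM), and since this chemistry counts 1 tag per transcript they are not divided by gene length. The cells of the libraries differed in kind: summed over 10 spermatid markers (among them Prm1, Prm2, Tnp1 and Tnp2) the level was 42426, 49060, 379 and 1333 CPM, and summed over 6 Leydig cell markers it was 7.66, 10.1, 14418 and 397 CPM, with 0 markers of either list at 0 in any library. In sums over whole libraries, fewer cells of a type and less RNA per cell cannot be told apart.

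Among the outer dense fibre genes, Odf2 was by far the highest and was at 2390, 2186, 438 and 1462 CPM in A0, A10, B0 and BA10. B0 stood well below the others, and BA10 lay between B0 and the libraries without busulfan. Odf4 was at 260, 251, 79.0 and 267 CPM, so that only B0 was low and BA10 was level with A0. Odf3 was at 180, 167, 21.3 and 31.4 CPM, and Odf1 was at 116, 120, 22.7 and 28.8 CPM. For these last genes both busulfan libraries were low and lay close to each other.

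Of the sheath genes, Akap4 was at 688 and 593 CPM in A0 and A10 but at 29.9 and 56.4 CPM in B0 and BA10. Akap3 was at 395, 318, 38.5 and 59.0 CPM. Fsip2 was at 267, 231, 93.1 and 81.4 CPM, the one member that was lowest in BA10 on this scale. Together the 7 members took 0.430%, 0.387%, 0.0722% and 0.199% of all UMIs of A0, A10, B0 and BA10.

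**Figure D1:**
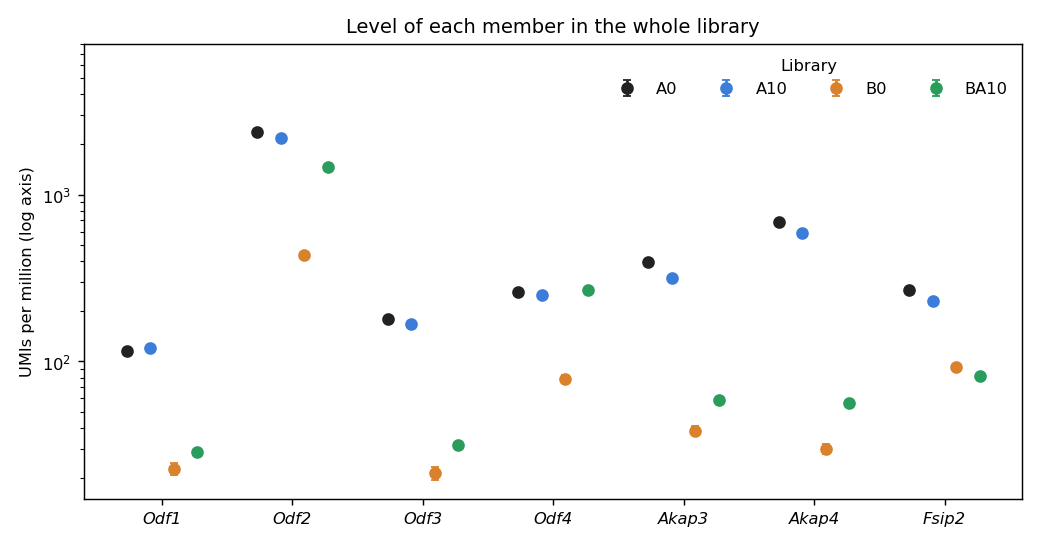
Level of each member (CPM on a log axis) in the 4 libraries, with exact Poisson 95% intervals, which are mostly smaller than the points. A0 and A10 lie side by side for every member, B0 is far lower, and BA10 is near A0 only for Odf4, at 267 against 260 CPM.

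The share of cells with a UMI gave the same order of libraries as the levels for Odf2 and Akap4. After each cell was thinned to 2900 UMIs, which left out 0 cells, Odf2 was seen in 99.4%, 99.3%, 26.9% and 96.7% of cells in A0, A10, B0 and BA10. In the 3638 somatic-like cells of B0 (clusters named Leydig, Sertoli, macrophage or endothelial) the share was 14.3%. The share in these cells is taken as background for each member in B0 only. In the 185 somatic-like cells of BA10 the shares were higher, with 75.7% for Odf2, and summed spermatocyte markers in the 51 of them in macrophage-like cluster 18 were at 1998 CPM, against 358 CPM in the B0 cells of that cluster. A0 and A10 held 18 and 11 somatic-like cells, too few for such a share. The 18 cells of A0 held 415 Odf2, 93 Akap4 and 93 Fsip2 UMIs. A background for A0 and A10 is thus not given. Odf4 was seen in 52.4%, 50.7%, 8.22% and 52.9% of cells, against 1.98% in the somatic-like cells of B0 and 30.8% in those of BA10. Akap4 was seen in 67.0%, 66.5%, 3.18% and 12.996%, against 0.550% and 7.57%, and Fsip2 in 47.3%, 43.4%, 9.38% and 24.0%, against 1.43% and 15.7%. For Fsip2, lower in BA10 than in B0 by level, the share was thus higher in BA10. Among cells with at least 5000 UMIs, thinned to that number, it was 35.7% of the 1424 B0 cells that remain and 34.5% of BA10 cells, while over all cells unthinned it was 15.02% and 76.8%. Unthinned, the Akap4 shares were 89.7%, 89.0%, 5.69% and 32.1%. At least 4 of the 7 members were seen together in 59.0%, 56.0%, 3.61% and 12.7% of cells of the 4 libraries.

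In the control testis the members reached their highest levels at different points of the order of germ cells. Germ cells were ordered by diffusion pseudotime, built without the members, and divided into 10 bins of position 0 to 100. From bin 1 to bin 10 of A0, the spermatocyte gene Sycp3 went from 827 to 19.6 CPM and the protamine gene Prm1 from 1730 to 41591 CPM. Prm1 was highest in bin 9, however, at 43638 CPM. Fsip2 was the early member: it was at 280 CPM in bin 1, highest at 452 CPM in bin 6, still 255 CPM in bin 8, and then 51.2 and 21.1 CPM in bins 9 and 10. Odf4 had a broad profile, from 124 CPM in bin 1 to 313 CPM in bin 5 and 215 CPM in bin 10. Both were thus past their highest level in bins 9 and 10.

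The other members were later. Odf1 went from 34.3 CPM in bin 1 to 187 CPM in bin 8 and 157 CPM in bin 10. Odf3 was at 23.1 CPM in bin 4, 342 CPM in bin 7 and 372 CPM in bin 8, with a dip to 217 CPM in bin 9. Akap3 was at 139 CPM in bin 4 and was highest in the last bin, at 847 CPM. Akap4 was at 142 CPM in bin 4, 1060 CPM in bin 8 and 1722 CPM in bin 9, and Odf2, already at 1017 CPM in bin 1, was highest in bin 9 too, at 4008 CPM. Along this order, which leaves out unnamed clusters, the highest level of a member was thus reached in bins 5 (Odf4), 6 (Fsip2), 8 (Odf1, Odf3), 9 (Odf2, Akap4) and 10 (Akap3). In A10 it was reached in the same bins.

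Weighted by UMIs, the mean position in A0 was 49.0 for Fsip2, 54.5 for Odf4, 62.9 for Odf2, 67.8 for Odf1, 72.5 for Odf3, 72.6 for Akap3 and 75.9 for Akap4. All UMIs of the A0 germ cells together had a mean position of 54.7. Intervals of these positions take each UMI as independent, though UMIs of a cell share its position, so they are too narrow. By them Odf3 and Akap3 were not separated, at 72.3 to 72.7 and 72.5 to 72.8. The intervals of the other neighbours in this order did not overlap. In A10 the positions were 46.7 for Fsip2, 52.2 for Odf4, 59.8 for Odf2, 65.6 for Odf1, 71.1 for Odf3, 70.8 for Akap3 and 74.2 for Akap4, and that of all UMIs was 52.3. The order was that of A0 except that Odf3 and Akap3 changed places.

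**Figure D2:**
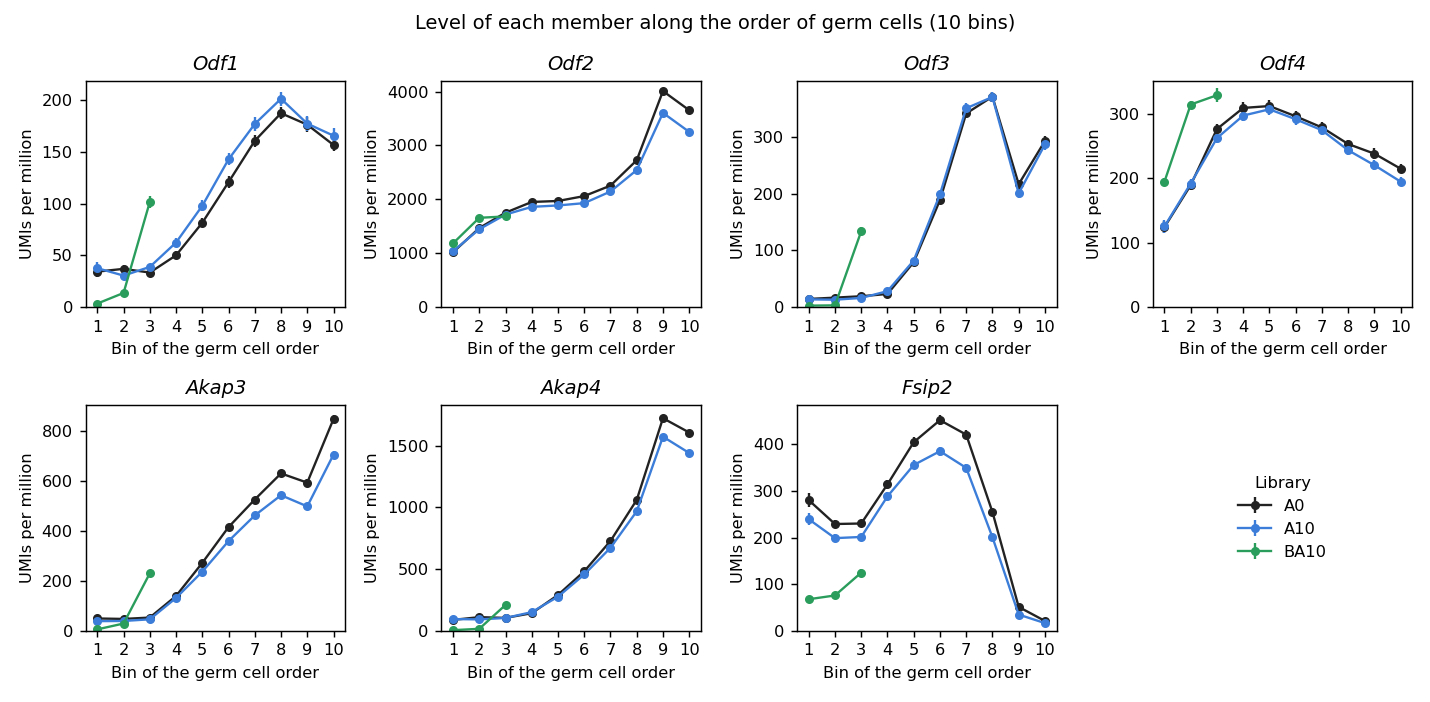
Level of each member (CPM, linear axes from 0) in the 10 bins of the germ cell order, for A0, A10 and the bins in which BA10 held at least 50 cells, with exact Poisson 95% intervals. Fsip2 is highest in bin 6 and nearly gone by bin 10, Akap3 is highest in bin 10, and BA10 reaches bin 3 with Fsip2 below A0 in each of its bins.

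Clusters of cells, made without the members, gave a like staging for Fsip2, Akap4 and Odf2 in more detail. Of 27 clusters, 15 held at least 50 A0 cells. Cluster 12 and cluster 15, the earliest of the spermatocyte-like (SPC-like) clusters, were led by genes including Tex101 and Pou5f2, and clusters 5 and 14, spermatid-like (ST-like), by protamine and transition protein genes (Tnp2, Prm2). Fsip2 was at 264 and 223 CPM in clusters 12 and 15, highest at 478 CPM in cluster 3, and at 23.2, 19.6, 21.5 and 22.3 CPM in the late clusters 14, 5, 17 and 7. Akap4 was at 42.7 CPM in cluster 15 and at 2052 and 2010 CPM in clusters 5 and 14. Odf2 was at 1475 CPM in cluster 15, 4397 CPM in cluster 5 and 5742 CPM in cluster 14. Clusters 5 and 14 thus had the highest Akap4 and Odf2, and the 4 late clusters had the lowest Fsip2. Odf1 was highest outside the order, in unnamed cluster 20, led by genes such as Prss50 and Stra8. There it was at 431 CPM in A0 and 348 CPM in A10, against 246 and 263 CPM in cluster 14, the next highest. The cells of cluster 20 were mixed in markers. In A0 and A10 its summed spermatid markers were at 62007 and 49289 CPM, and its summed spermatogonial markers at 578 and 647 CPM. In BA10 the cluster had 1826 CPM of the spermatid markers and 50.8 CPM of Odf1. The part of these markers in the Odf1 level was not tested.

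The late ST-like clusters also differed among themselves. In cluster 14, Odf3 was at 24.0 CPM and Akap3 at 93.6 CPM, against 400 and 1006 CPM in cluster 7 and 275 and 1091 CPM in cluster 17, while Akap4 was at 2010, 1393 and 1736 CPM in these clusters. Odf2 ran the other way from Odf3, at 5742, 2974 and 3830 CPM. Cells of cluster 14 thus held much Odf2 and Akap4 RNA and little Odf3 and Akap3 RNA. The same held in A10, where cluster 14 had 23.8 CPM of Odf3 and 94.9 CPM of Akap3, and cluster 7 had 415 and 861 CPM.

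Across the 15 A0 clusters, Pearson's r of the log2 levels was 0.96 for Odf3 and Akap3 and 0.89 for Odf1 and Akap4, and it was -0.76 for Odf2 and Fsip2 and -0.57 for Akap4 and Fsip2. These clusters share 1 library, and the values are descriptions. Over 46 groups of cluster and library with at least 50 cells, and 10272 genes, the genes most like the members in level were Dnajb3 (0.995), Mea1 and Stard6 for Odf2, 1700009N14Rik (0.996), Pkib and Oaz3 for Akap4, and Hils1 (0.989), a spermatid linker histone gene, Trim36 and Cypt2 for Akap3. For Odf3 they were Cypt4 (0.983), Kif2b and 1700093K21Rik, for Odf1 Prr30 (0.978), 1700013G24Rik and Ms4a5, for Odf4 Kif9 (0.992), Ppp1r36 and 4922502D21Rik, and for Fsip2 Spef2 (0.965), Iqub and Lca5l. None of these lists of 3 genes held another member. The lists depended on the measure: ranked by Spearman's rho, 0 of the 3 genes were kept for Odf1 and Odf4, 1 for Odf3, Akap3, Akap4 and Fsip2, and 2 for Odf2.

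**Figure D3:**
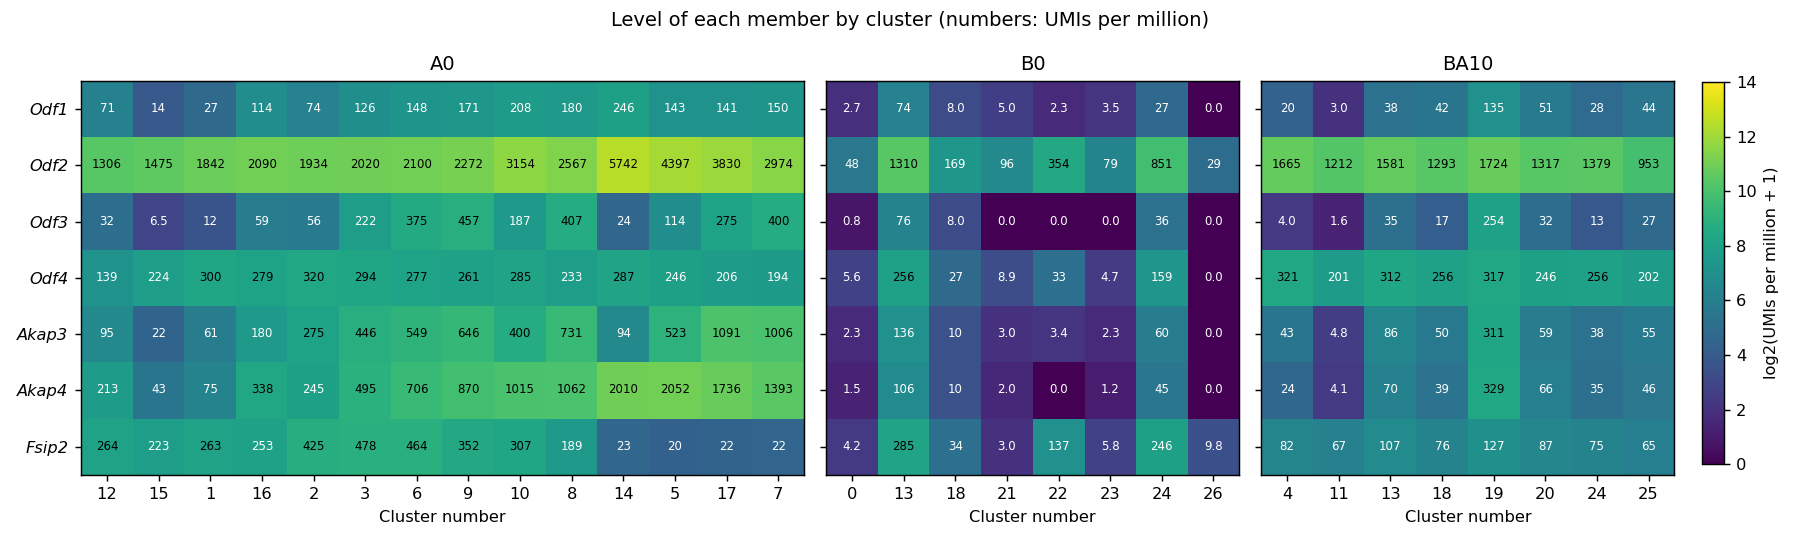
Level of each member by cluster, as log2(CPM + 1) in colour and CPM in print, for the named A0 clusters in order of median position and for clusters of B0 and BA10. Fsip2 is bright on the left of A0 and dark on the right, and in B0 the members are highest in cluster 13, followed by cluster 24.

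With AOS alone the members differed from the control by small amounts. In A10 against A0, Akap3 was lowest with a log2 ratio of -0.31 (95% interval -0.33 to -0.29), Akap4 was at -0.22 and Fsip2 at -0.21, while Odf2 was at -0.13, Odf3 at -0.10, Odf4 at -0.05 and Odf1 at 0.05. The median of the members was -0.13, and that of the 6724 genes at 10 CPM or more in either library was -0.03. Past 2-fold were 0 of 7 members, with 0.104% of all tested genes past it in either direction. Of the tested genes, 2.33% had a lower ratio than Akap3. Within the 15 clusters that both libraries shared, Odf2 was lower in A10 in 15, Akap3 and Fsip2 in 14, Akap4 and Odf4 in 13, Odf3 in 9 and Odf1 in 3. The median ratio over clusters was -0.22 for Akap3, -0.21 for Fsip2, -0.18 for Akap4, -0.10 for Odf2, -0.04 for Odf4, -0.01 for Odf3 and 0.10 for Odf1. The interval lay below 0 in 4 of the 15 clusters for Odf4, and for Odf3 it lay below 0 in 2 and above 0 in 2. Ratios within clusters were made for the members only, so these counts cannot be set against other genes. The 15 clusters come from the same 2 libraries and do not repeat the comparison. In the ST-like cells, 4272 in A0 and 4611 in A10, the median of the members was again -0.13. How far such differences arise between 2 libraries of the same treatment was not measured.

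The library of busulfan alone held little RNA of these genes. In B0 against A0, 7 of 7 members were past 2-fold lower, with 22.7% of 10056 tested genes past it in that direction. The log2 ratio was -4.48 for Akap4, -3.33 for Akap3, -3.02 for Odf3, -2.45 for Odf2, -2.30 for Odf1, -1.71 for Odf4 and -1.51 for Fsip2, with a median of -2.45 where all tested genes had 0.51. The members with the latest positions, Akap4, Akap3 and Odf3, were the furthest down, and the early members Fsip2 and Odf4 the least. Over cells with at least 9013 UMIs, which keeps 448 B0 cells, the median was -0.96 and 3 of 7 members were past 2-fold lower, with 11.7% of tested genes. These were Akap4 at -2.79, Akap3 at -1.76 and Odf3 at -1.40, while Odf4 was at -0.20 and Fsip2 at -0.08.

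Most of the B0 signal came from 1 group of cells. Cluster 13, with 503 cells and 10.8% of the cells of B0, held between 72.4% (Odf2) and 85.9% (Odf3) of the library's UMIs of each member, and it held 24.2% of all UMIs. There Odf2 was at 1310 CPM, Fsip2 at 285, Odf4 at 256, Akap3 at 136, Akap4 at 106, Odf3 at 75.8 and Odf1 at 74.2. Fsip2 lay next to the 280 CPM of bin 1 of A0, but also between the 230 and 314 CPM of bins 3 and 4. Akap4 lay near its 88.3 to 111 CPM in bins 1 to 3 of A0. Akap3, Odf3 and Odf1 lay above these bins, where they were at 47.4 to 52.9, 14.4 to 19.2 and 33.4 to 37.0 CPM. The members thus did not place the cluster at 1 point of the A0 order. The cluster stays unnamed: its leading genes include haemoglobin genes and the Sertoli cell genes Rhox8 and Aard, its summed spermatocyte markers were at 2178 CPM and its summed spermatid markers at 1101 CPM. In it, 2305 Odf1 UMIs were found per 1000 Prm1 UMIs, against 2.52 to 60.7 in the clusters of A0. The number was also 3000 in cluster 24, 1250 in spermatogonia-like cluster 21 and 708 in Leydig-like cluster 0 of B0. In clusters 19 and 13 of BA10 it was 1315 and 734. Prm1 was low in these B0 clusters, at 32.2, 8.96, 3.96 and 3.87 CPM in clusters 13, 24, 21 and 0. Clusters 24 and 21 held only 12 and 5 Odf1 UMIs. The number is thus high where Prm1 is nearly absent and is not particular to cluster 13. At least 4 members were seen together in 28.2% of the cells of cluster 13, thinned to 2900 UMIs.

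In most other clusters with at least 50 B0 cells the members were low. In the 2911 Leydig-like cells of cluster 0, Odf2 was at 47.9 CPM, Odf4 at 5.56, Fsip2 at 4.19, Odf1 at 2.74, Akap3 at 2.34, Akap4 at 1.53 and Odf3 at 0.806. The 238 spermatogonia-like cells of cluster 21 had 96.1 CPM of Odf2 and 2.97 CPM of Fsip2. In the 166 SPC-like cells of cluster 22, led by genes such as Meiob and Sycp1, Fsip2 was at 137 CPM and Odf2 at 354 CPM while Akap4 and Odf3 had 0 UMIs, which allows up to 3.42 CPM when a floor of 3 counts is taken and 4.21 CPM as the upper end of the Poisson interval. Fsip2 RNA was thus present in early spermatocyte-like cells that held no Akap4 UMI. At least 4 members were seen in 0.0687% of the cells of cluster 0. The exception among these was cluster 24, unnamed and led by Dcn and other fibroblast genes, whose 55 cells had 851 CPM of Odf2, 246 of Fsip2, 60.5 of Akap3 and 44.8 of Akap4. Clusters with fewer B0 cells also held members: the 42 SPC-like cells of cluster 11 had 7.87% of the library's Odf2 and 6.53% of its Fsip2 UMIs, with 3.86% of all UMIs, and the 24 cells of cluster 25 had 3.83% of its Odf1 UMIs, with 0.957% of all.

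With AOS after busulfan, Odf2 and Odf4 lay nearer to the control than the other 5 members did. In BA10 against B0, Odf4 had a log2 ratio of 1.75 (1.68 to 1.81) and Odf2 of 1.74 (1.71 to 1.77). These 2 of 7 members were past 2-fold higher, with 18.8% of 9720 tested genes. Akap4 was at 0.89, Akap3 at 0.60, Odf3 at 0.54, Odf1 at 0.33 and Fsip2 at -0.19. When libraries were scaled by the trimmed mean of M values, Akap4 was past 2-fold higher too, at 1.25, and Fsip2 was at 0.19. With the mean over cells of each cell's level, Fsip2 was at 0.99 and the other 6 lay between 1.61 (Odf1) and 2.83 (Odf4). In BA10 against A0, 5 of 7 members were past 2-fold lower, with 20.2% of 7549 tested genes: Akap4 at -3.59, Akap3 at -2.72, Odf3 at -2.48, Odf1 at -1.98 and Fsip2 at -1.70. Odf2 was at -0.71 and Odf4 at 0.04. With the trimmed mean scaling Odf2 was at -1.14, so that it was past 2-fold lower as well, and Odf4 was at -0.38. These comparisons share the B0 or A0 library with those above.

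The comparison of BA10 with B0 turned with the depth of the cells taken. Over cells with at least 9013 UMIs the median of the members was -0.97 instead of 0.60, and 3 of 7 were past 2-fold lower, with 14.1% of tested genes: Fsip2 at -1.65, Odf1 at -1.23 and Odf3 at -1.11. Akap3 was at -0.97 and Akap4 at -0.75, while Odf2 and Odf4 were at 0.28 and 0.25. The 448 B0 cells that remain had summed Leydig markers at 893 CPM, against 14418 CPM in all of B0. Fsip2 went furthest, from 258 CPM in these B0 cells to 81.4 CPM in BA10, and of the tested genes 2.38% had a lower ratio. Of these 448 B0 cells, 330 were in cluster 13, so the values within that cluster, with 503 B0 cells and 407 BA10 cells, rest largely on the same cells. In it Fsip2 was at 285 CPM in B0 and 107 CPM in BA10, a log2 ratio of -1.41 (-1.54 to -1.29), and Odf3 at 75.8 and 35.1 CPM, a ratio of -1.09, while Odf2 was at 0.27 and Odf4 at 0.29. In these cells of B0 and BA10 the summed Leydig markers were at 524 and 153 CPM and the summed spermatid markers at 1101 and 604 CPM, and their part in the ratios was not tested. Clusters 18 and 24 also held at least 50 cells of both libraries. In macrophage-like cluster 18, with 452 B0 and 51 BA10 cells, the ratios ran from 1.01 for Odf3 (-0.05 to 2.03) to 3.19 for Odf4. Its summed markers in B0 and BA10 were at 16712 and 1552 CPM for Leydig cells, 358 and 1998 for spermatocytes and 491 and 1429 for spermatids. Their part in these ratios was not tested. In cluster 24, with 55 and 119 cells, Fsip2 was at -1.70, Odf3 at -1.35 and Odf2 at 0.70, while Odf1 was at 0.07 with an interval of -0.78 to 1.04. Its summed markers in B0 and BA10 were at 529 and 139 CPM for Leydig cells, 847 and 195 for Sertoli cells, 2795 and 2154 for spermatocytes and 444 and 850 for spermatids, and their part was not tested.

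**Figure D4:**
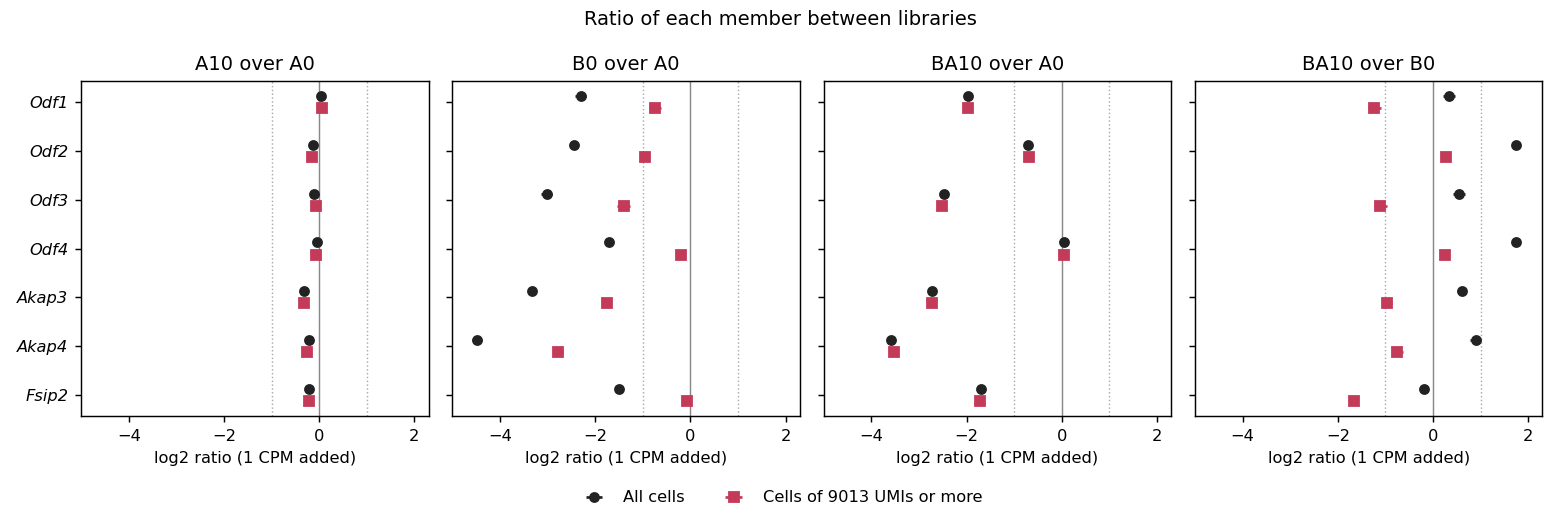
Log2 ratio of each member in the 4 comparisons, over all cells (circles) and over cells with at least 9013 UMIs (squares), with 95% intervals for counting error and dotted lines at 2-fold. The symbols nearly coincide for A10 over A0 and BA10 over A0, and they lie far apart in the comparisons with B0, where Odf1, Odf3, Akap3 and Akap4 cross 0 in BA10 over B0.

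In BA10 a small cluster held a large part of the UMIs of Odf3, Akap4, Akap3 and Odf1. Cluster 4 held a further 28.2% of the Akap3 and 26.7% of the Odf1 UMIs. Cluster 19 had 389 cells named SPC-like, 10.3% of the library. It held 69.8% of the Odf3, 50.3% of the Akap4, 45.5% of the Akap3 and 40.4% of the Odf1 UMIs of BA10. Of the Odf2 and Odf4 UMIs it held 10.2%. Its summed spermatid markers were also higher, at 2639 CPM against 264 and 101 CPM in clusters 4 and 11, and their part in these levels was not tested. Its levels were 329 CPM of Akap4, 311 of Akap3, 254 of Odf3 and 135 of Odf1. Cluster 4, the largest with 1517 cells, had 24.1 CPM of Akap4, 43.3 of Akap3, 4.05 of Odf3 and 20.0 of Odf1, and cluster 11, with 953 cells, had 4.12, 4.82, 1.59 and 2.98 CPM. Odf2 and Odf4 were spread over all 3: Odf2 was at 1724, 1665 and 1212 CPM and Odf4 at 317, 321 and 201 CPM in clusters 19, 4 and 11. At least 4 members were seen in 63.2%, 6.26% and 0.315% of the cells of clusters 19, 4 and 11. Only 31 BA10 cells were in clusters named ST-like, too few for a level, and they held 655 of the 5153 Akap4 UMIs of the library. Clusters 19, 4 and 11 were almost wholly BA10 cells. When they are set beside clusters of other libraries, a difference of library and of cell state cannot be told apart.

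Bins of the order were used to set BA10 beside A0 at like positions, a comparison added after the data were seen. Fsip2 was lower in BA10 in each bin that could be compared: it was at 67.7 against 280 CPM in bin 1, at 75.8 against 229 CPM in bin 2 and at 125 against 230 CPM in bin 3. The log2 ratios were -2.03 (-2.13 to -1.94), -1.58 (-1.66 to -1.502) and -0.88 (-0.96 to -0.79), and of all tested genes 5.82%, 8.07% and 22.04% were lower. Odf4 was higher in BA10 in each bin, at 195 against 124, 315 against 190 and 329 against 277 CPM. Odf2 was close, at 1183 against 1017, 1657 against 1467 and 1682 against 1752 CPM. The cells of a bin differed in other markers too: in bin 1 the summed spermatocyte markers were at 2582 CPM in BA10 and 4639 CPM in A0, and the summed spermatogonial markers at 313 and 777 CPM in bin 1 and 121 and 308 CPM in bin 2. Their part in these ratios was not tested.

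The late members split by bin. In bin 1, Akap4 was at 5.06 CPM in BA10 against 88.3 CPM in A0, Akap3 at 5.72 against 49.3, Odf1 at 3.40 against 34.3 and Odf3 at 2.55 against 14.4, and 5 of 7 members were past 2-fold lower, with 19.6% of tested genes. In bin 3 the order was the other way, with Akap3 at 230 against 52.9 CPM, Odf3 at 134 against 19.2, Akap4 at 209 against 104 and Odf1 at 102 against 33.4, and 3 of 7 members past 2-fold higher, with 21.3% of tested genes. In bin 2, 4 of 7 were past 2-fold lower, with 17.3% of tested genes. These values depended on the order. In bin 1, Odf1 went from -3.00 to -1.99 with cells ordered by the first principal component, and in bin 3 Akap4 went from 0.996 to 1.43 and so past 2-fold higher. In bin 2, with that order, Odf1 went from -1.37 to 0.25, Akap3 from -0.69 to 0.72, Odf3 from -2.12 to -0.92 and Akap4 from -2.70 to -1.03, which left Akap4 and Fsip2 (-1.46) past 2-fold lower. Cluster 19, which held much of the UMIs of these members in BA10, had a median position of 22.7, within bin 3. Spermatid markers differed as well. Summed over 10 genes they were at 6091, 8613 and 7739 CPM in bins 1, 2 and 3 of A0 and at 109, 219 and 1733 CPM in those of BA10. These markers were thus lower in BA10 in each bin, also in bin 3, where the late members were higher. The part of the markers in the levels of the late members in these bins was not tested. The mean positions within the bins also differed, being 5.31, 16.1 and 22.1 in BA10 and 6.71, 13.2 and 26.1 in A0.

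The wider tail apparatus was read from a list of 19 further genes of the sheath, the fibres and their partners, of which 18 were in the table. In A10 against A0, 0 of them were past 2-fold, with 0.104% of tested genes, and their median was -0.13, where all tested genes had -0.03. In B0 against A0, 14 of 18 were past 2-fold lower, with 22.7% of tested genes, and their median was -2.37. Over cells with at least 9013 UMIs, 8 of 18 were past it, with 11.7% of tested genes, and the median was -0.84. Oaz3, an antizyme gene of haploid germ cells, was at 1820, 1587, 69.0 and 147 CPM in A0, A10, B0 and BA10, and Gapdhs, the sperm glycolytic enzyme bound to the sheath, at 1061, 963, 41.8 and 93.0 CPM. Both followed Akap4 in being low in both busulfan libraries. In BA10 against A0, 12 of 18 were past 2-fold lower, with 20.2% of tested genes.

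Some genes of the list kept the pattern of Odf2 and Odf4 instead. Ropn1l, a ropporin-like protein of the tail, was at 3293, 3199, 1065 and 3717 CPM in A0, A10, B0 and BA10, and Ccdc42, needed for tail formation, was at 137, 137, 58.8 and 172 CPM. They were among 5 genes past 2-fold higher in BA10 against B0 (Ccdc42, Gapdhs, Oaz3, Ropn1l and Spag5), with 18.8% of tested genes, and 1, Prkar2a, was past 2-fold lower, with 39.5%. Prkar2a, a regulatory subunit of protein kinase A of the kind that AKAP proteins bind, was at 195, 175, 12.48 and 3.77 CPM. It had the lowest BA10 over A0 ratio of the list, at -5.36. Prkar1a, another regulatory subunit, was at 318, 314, 326 and 370 CPM and did not separate the libraries. Over cells with at least 9013 UMIs, 0 of the list were past 2-fold higher in BA10 against B0, with 1.14% of tested genes, and 2 were lower, with 14.1%, Fsip1 at -1.16 and Odf2l at -1.28. Prkar2a was at 0.79 there, a ratio of low levels, 3.77 CPM in BA10 and 1.75 CPM in B0.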

How the data were processed

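The authors counted UMIs with Cell Ranger 2.2.0 on mm10 (per the labels), scaled each cell to a total of 10000, added 1 and deposited the natural log. UMIs were recovered by undoing this, and 100% of the 89245034 values above 0 were whole within 0.001. The members and lists were chosen with earlier results of these data known. Levels are summed UMIs per 1000000 (CPM), with exact Poisson intervals; log2 ratios have 1 CPM added, and called means past 2-fold among genes at 10 CPM or more in either library. Named genes were the 7 members, the 19 listed partners and the 3 genes most like each member. Cells were clustered with scanpy 1.11.5 (30 principal components of 2000 variable genes, 15 neighbours, Leiden resolution 1, no alignment), leaving out the members and the list. Clusters were named from marker lists; that a cluster led by the fibroblast gene Dcn stays unnamed was decided after its leading genes were seen. Germ cells were ordered by diffusion pseudotime rooted in the spermatogonia-like cluster. Doublets were kept; Scrublet called 8.06%, 8.66%, 0.0859% and 1.27% of cells in A0, A10, B0 and BA10. The planned trimmed mean of M values scaling was computed directly, and the planned protein composition was not made. The log2 ratios and their intervals were tested on simulated Poisson counts, without variation between cells or animals.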

Additional observations from a re-analysis of the deposited data

Results flagged for a closer look

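For 5 members the ratio with over without AOS had opposite signs in mice without and with busulfan, since each was lower in A10 than in A0 and higher in BA10 than in B0. The difference between the log2 ratios (BA10 over B0 minus A10 over A0) was 1.87 for Odf2, 1.80 for Odf4, 1.11 for Akap4, 0.91 for Akap3 and 0.64 for Odf3. Each sign comes from 1 library per group, and the difference was not tested. The share of all tested genes with opposite signs was not counted, so 5 of 7 members cannot be set against a background. Without busulfan the ratios lay near 0, at -0.05 for Odf4 and a median of -0.03 for all tested genes. With busulfan that median was -0.38. B0 and BA10 also differed in their cells, with summed Leydig markers at 14418 and 397 CPM, and the part of this in the signs was not tested. For Odf3, Akap3 and Akap4 the sign of BA10 over B0 turned when only cells with at least 9013 UMIs were taken, and for Odf2 and Odf4 it did not.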

How the results depend on the processing

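No paired analysis was possible because each group was 1 library. Over cells with at least 9013 UMIs, the median log2 ratio of the members was -0.14 for A10 against A0, -0.96 for B0 against A0 and -0.97 for BA10 against B0. In the last, Odf1 (-1.23), Odf3 (-1.11), Akap3 (-0.97) and Akap4 (-0.75) changed sign, and B0 then held 448 of 4659 cells. With the trimmed mean of M values scaling the medians were -0.10 (A10 to A0), -3.26 (B0 to A0), 0.97 (BA10 to B0) and -2.39 (BA10 to A0), Fsip2 in BA10 over B0 was 0.19, and Odf2 and Odf4 in BA10 over A0 were -1.14 and -0.38. As a mean over cells they were -0.12, -3.52, 2.003 and -1.73, with Fsip2 in BA10 over B0 at 0.99. BA10 over A0 was -1.70 with 10 CPM added and -1.89 without the cells Scrublet called. In ST-like cells, A10 over A0 was -0.14 at resolution 0.5, -0.14 with 1000 variable genes and -0.15 over cells with at least 9013 UMIs; BA10 had 31 to 47 such cells, so its ST-like comparison was not run. Mean positions in A0 of Fsip2, Odf4, Odf2, Odf1, Odf3, Akap3 and Akap4 were 47.9, 53.8, 62.6, 68.4, 72.8, 73.1 and 76.3 ordered by the first principal component, 48.1, 54.1, 63.0, 68.6, 73.2, 73.5 and 77.1 without the cells Scrublet called, and in A10 46.7, 52.2, 59.8, 65.6, 71.1, 70.8 and 74.2. By the first principal component, BA10 over A0 in bin 2 was 0.25 for Odf1 and 0.72 for Akap3, against -1.37 and -0.69, and Odf3 was -0.92 against -2.12. The causes were not tested.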
